A study of Mus musculus with 8 samples.

Results

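The genes described here are 37 genes of glycolysis and of the response to low oxygen, of 54532 genes in the table, in first molars of wild-type mouse pups and of pups without Wdr72. They were taken by gene name from a list of HIF-responsive genes and glycolytic enzymes: 16 glycolytic enzymes and 21 other hypoxia genes. All 37 passed the filter on low counts that left 16205 genes for the test. The name Aldoa stood on 2 rows, 38 rows in all, and the row with the more reads was used. The genes were chosen by name with the read counts of KO and WT in these libraries known, and Ak4 already stood out in them. Differences between the groups are therefore a description of these libraries, and no list is tested. Log2 fold changes are KO minus WT throughout.

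There were 4 libraries from C57BL/6 wild-type mice (WT 2, 3, 4 and 5) and 4 from Wdr72-/- mice on the same strain label (KO 1, 3, 4 and 5). The age label reads postnatal day 12 and the protocol speaks of day 13. Molars were cleared of pulp and homogenised whole, and the labels call the cells enamel organ cells and ameloblasts, the epithelium that lays down and matures enamel. The labels do not give the part of Wdr72 that was removed, or whether a library held 1 pup or several, so errors measure only the spread between these libraries.

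When oxygen is short, the transcription factor HIF is no longer hydroxylated by the EGLN enzymes and marked for destruction, and it binds a short core sequence near its target genes. Its targets raise glucose uptake, glycolysis and lactate export, hold pyruvate back from mitochondria, trim mitochondria and signal to blood vessels. HIF itself is controlled mainly as a protein, so its own mRNA is a poor gauge of its activity. In the enamel organ, blood vessels run along the papillary layer and not between ameloblasts, and maturing ameloblasts pump ions at a high energy cost.

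Libraries held 17084475 to 21887462 counted reads. Wdr72 was at 173, 245, 327 and 228 CPM in WT and at 102, 37.8, 24.9 and 15.8 CPM in KO 1, 3, 4 and 5, so each KO library was below each WT library and KO 1 retained the most. The log2 fold change of Wdr72 was -2.43 (SE 0.47), which missed the threshold in edgeR (adjusted p = 0.080). KO 5 correlated less with the other libraries (mean r = 0.964 on log2 CPM across genes) than the rest did (0.980 to 0.983). All 10 ameloblast markers were present, summing to 53500 to 97810 CPM in WT and 59860 to 81350 CPM in KO, beside 10 odontoblast and mesenchyme markers at 47700 to 91680 and 66990 to 96860 CPM. Xist was at 177 CPM or more in each library, and the Y-linked gene Eif2s3y was at 1.24 CPM in WT 3 and at 19.4 to 63.96 CPM in the other 7. Reads of Xist and of a Y-linked gene thus occurred together in those 7 libraries, as in RNA of both sexes. Over all genes, 5 of 16205 passed an adjusted p of 0.05 in edgeR's quasi-likelihood test, or 0.0309%.

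The promoters of the genes on which the results turn are shown first, because the HIF core sequence is what many of these genes are known to share. Of the 37 genes, 34 matched a RefSeq promoter window (GRCm38.p6). The motifs searched were ACGTG and GCGTG on both strands, which together make up the HIF core. On the other strand they read CACGT and CACGC, and CACGTG holds ACGTG on both strands. Each stretch printed here lies upstream of the RefSeq start and outside the annotated exons of its gene, reads 5′ to 3′ on the gene's strand, and has the motifs in capitals. Ak4, Pdk1 and Bnip3 are the hypoxia genes with the lowest KO levels relative to WT among those whose groups did not overlap, and Pgk1 and Ldha are enzymes with several motifs. The RefSeq start used for Ldha lies 4329 bases from the 5′ end of the gene in the table. Among the members' windows counted further on, this distance was 6492 bases for Hif1a and 5857 for Ankrd37. The next largest was 829 bases, for P4ha2.
Ak4, chr4:101419129-101419276, plus strand: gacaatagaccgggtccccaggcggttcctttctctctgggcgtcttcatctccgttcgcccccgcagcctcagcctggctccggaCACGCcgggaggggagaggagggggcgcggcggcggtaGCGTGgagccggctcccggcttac
Pdk1, chr2:71873064-71873223, plus strand: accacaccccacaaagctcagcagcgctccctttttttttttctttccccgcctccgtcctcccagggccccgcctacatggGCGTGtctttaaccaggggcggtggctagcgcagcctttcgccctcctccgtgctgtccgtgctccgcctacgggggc
Bnip3, chr7:138909520-138909666, minus strand: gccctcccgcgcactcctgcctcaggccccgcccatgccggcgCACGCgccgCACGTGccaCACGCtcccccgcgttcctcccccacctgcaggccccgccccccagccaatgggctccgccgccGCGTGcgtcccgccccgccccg
Pgk1, chrX:106186940-106187099, plus strand: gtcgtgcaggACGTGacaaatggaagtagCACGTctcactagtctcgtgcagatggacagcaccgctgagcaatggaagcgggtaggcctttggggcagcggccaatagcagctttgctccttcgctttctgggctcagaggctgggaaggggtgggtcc
Ldha, chr7:46845644-46845803, plus strand: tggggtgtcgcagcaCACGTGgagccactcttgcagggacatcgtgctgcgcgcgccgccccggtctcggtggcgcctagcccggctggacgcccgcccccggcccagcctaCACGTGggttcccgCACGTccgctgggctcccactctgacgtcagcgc

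In windows from 250 bases before to 50 after the start, ACGTG was found in 13 of 18 hypoxia genes (72.2%) and 7 of 16 enzymes (43.8%), against 24.7% of the 11741 tested genes with a window. GCGTG was found in 13 of 18 hypoxia genes (72.2%) and 8 of 16 enzymes, against 49.8% of tested genes. The median number of CpG pairs per window was 26 in the hypoxia genes, 18.5 in the enzymes and 20 in the tested genes. The windows of Ak4 and Pdk1 held GCGTG and not ACGTG, that of Pgk1 held ACGTG and not GCGTG, and those of Bnip3 and Ldha held both. The genes thus share the motif in part, and the letters alone do not show that a factor binds.

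The hypoxia genes other than enzymes lay mostly lower in KO. Of 21 genes, 19 had a log2 fold change below 0, against 46.9% of all genes tested, and the median was -0.22 against 0.02 over all genes. In 4 of them, Ak4, Bnip3, Hif1a and Pdk1, the groups did not overlap and KO was lower, against 5.44% of all genes, and in 0 of them KO was higher without overlap, against 5.5% of all genes. Ak4 alone of the 21 passed the threshold in edgeR, with KO lower, as did 0.0185% of all genes. The other 20 had a median of -0.20. Higd1a and Pfkfb4 had log2 fold changes above 0.

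**Figure D1:**
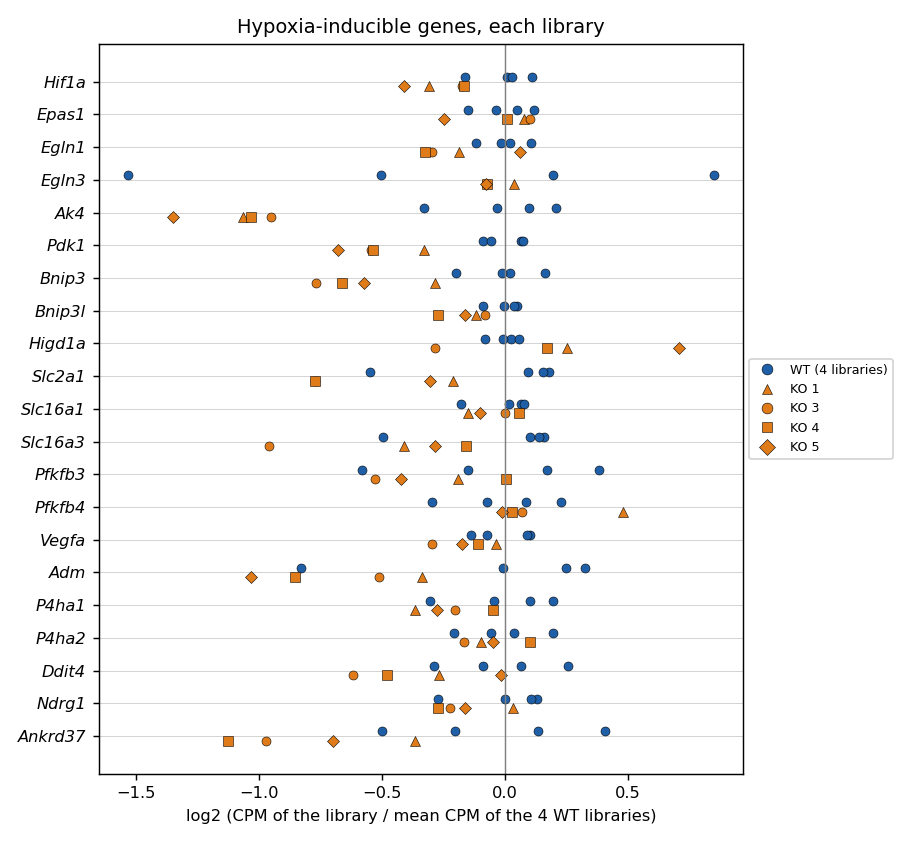
Log2 of each library's CPM over the WT mean for the 21 hypoxia genes, 1 point per library, WT blue and KO orange. KO points of Ak4, Pdk1, Bnip3 and Hif1a lie left of every WT point, and the 4 WT values of Egln3 are the most scattered.

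Hif1a, the oxygen-labile HIF subunit (chromosome 12, 73901375 to 73947530), was at 466, 434, 386 and 440.4 CPM in WT and at 349, 382, 384 and 325 CPM in KO. The highest KO library lay just below the lowest WT library, WT 4, and the log2 fold change was -0.26 (SE 0.12). With GC content and length corrected it was -0.09. Epas1, which encodes HIF-2 alpha and is known from endothelium, was level at 217 ± 17.2 and 216 ± 22.8 CPM (SD, n = 4 each). Per kilobase, Hif1a made up 64.1% ± 0.727 of the Hif1a and Epas1 level in WT and 60.04% ± 1.72 in KO, and the groups did not overlap. These shares were not corrected for GC content, which was 41.3% in Hif1a and 52.5% in Epas1. With GC content and length corrected, the log2 fold change of Epas1 was -0.04, close to the -0.09 of Hif1a. Egln1, the main HIF prolyl hydroxylase, was at 76.6 ± 4.89 and 67.7 ± 8.56 CPM, with overlapping groups. Egln3, a hydroxylase that HIF itself induces, was close to the bottom of detection: it had 0.720, 2.39, 3.75 and 1.47 CPM in WT and 1.97 to 2.13 CPM in KO, from 331 reads in all.

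Ak4, Pdk1, Bnip3, Bnip3l and Higd1a encode proteins of mitochondria. Ak4, the adenylate kinase of the mitochondrial matrix that HIF is known to induce (chromosome 4, 101419277 to 101466995), was at 19.4, 18.04, 13.4 and 16.4 CPM in WT and at 8.04, 8.72, 8.24 and 6.60 CPM in KO. The KO libraries lay close to each other and below WT 4, the lowest WT library. The KO mean was 47.0% of the WT mean, and the log2 fold change was -1.09 (SE 0.15). It ran from -1.19 to -0.99 over the 16 alternatives, and Ak4 passed the threshold in 6 of them and not in the other 10, among them 6 of the 8 fits with 1 library left out.

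Other adenylate kinases did not share this difference in size. Ak3, the matrix enzyme closest to Ak4 in location, stood at 89.4 ± 1.91 CPM for WT and 88.8 ± 6.94 for KO, a log2 fold change of -0.01 (SE 0.10). Ak1, of the cytosol, was at 199.7 ± 20.1 and 249.6 ± 101 CPM, and was highest in KO 5, at 402 CPM. Ak5 lay higher in the KO mean, by 0.53 (SE 0.27) on the log2 scale, with overlapping groups. Ak6 was at 12.4 to 12.96 CPM in WT and at 11.98, 10.3, 11.6 and 24.3 CPM in KO 1, 3, 4 and 5, so only KO 5 lay above WT and the other 3 lay below it. Ak7, Ak8 and Ak9 had too few reads to be tested, and no difference between Ak4 and its relatives was itself tested.

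Pdk1, the kinase that switches off pyruvate dehydrogenase (chromosome 2, 71873224 to 71903858), was at 73.4, 73.9, 66.0 and 67.5 CPM in WT and at 55.8, 48.2, 48.5 and 43.9 CPM in KO. Bnip3, a mitophagy receptor (chromosome 7, 138890836 to 138909519), was at 71.4, 64.8, 55.6 and 63.4 CPM in WT and at 52.4, 37.5, 40.4 and 43.0 CPM in KO. In both genes KO 1 lay nearest to WT among the KO libraries. The log2 fold changes were -0.52 (SE 0.10) for Pdk1 and -0.56 (SE 0.13) for Bnip3, and neither passed the threshold in edgeR with all libraries. DESeq2 called both, with Ak4, and no other member. It called 1.04% of all genes lower and 1.83% higher in KO. Bnip3l, a relative of Bnip3 with the same role and known from maturing red cells, was at 139 ± 5.94 and 125 ± 7.03 CPM, with a log2 fold change of -0.16 (SE 0.10), or -0.03 with GC content and length corrected. Higd1a, a small protein of the inner membrane, went the other way in the mean, at 105 ± 4.34 and 125 ± 35.0 CPM, and its KO values spread from 86.0 in KO 3 to 171 in KO 5.

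A list of 17 genes held other kinases and partners at the entry of pyruvate into mitochondria, and also Cs, Cox4i1, Cox4i2 and Lonp1. Of these 17, 0 passed the threshold in edgeR in either direction, against 0.0309% of all genes. Of the 17, 5 had a log2 fold change below 0, against 46.9% of all genes, and the median was 0.06. The 3 with the smallest p were Pdp2, a phosphatase that reactivates pyruvate dehydrogenase, at -0.50 (SE 0.16), Pdk2 at 0.33 (SE 0.14) and Mpc1, a subunit of the pyruvate carrier, at 0.26 (SE 0.17). Mpc1 was at 20.2 to 22.2 CPM in WT, at 21.1 to 22.8 CPM in KO 1, 3 and 4, and at 35.8 CPM in KO 5 alone. Pdk2, unlike Pdk1, was higher in the KO mean, at 44.5 ± 9.54 CPM for WT and 55.7 ± 0.873 for KO, with WT 5 at 58.1 CPM above every KO library.

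Among the transporters, Slc2a1, the glucose transporter GLUT1 (chromosome 4, 119108711 to 119137983), was at 145, 136, 87.2 and 142 CPM in WT and at 110.3, 74.8, 74.8 and 103 CPM in KO. WT 4 lay among the KO values, and the other WT libraries lay above all of them. The log2 fold change was -0.49 (SE 0.18), or -0.77 without KO 1 and KO 5, which held its highest KO values. Slc16a3, the lactate exporter MCT4, showed the same layout, at 18.9, 18.2, 12.01 and 18.6 CPM in WT and at 12.7, 8.72, 15.2 and 13.9 CPM in KO, a log2 fold change of -0.42 (SE 0.19). Slc16a1, the more general carrier MCT1, was at 57.1 ± 4.54 and 55.4 ± 3.62 CPM. Per kilobase, Slc16a3 made up 19.6% ± 2.09 of these 2 carriers in WT and 15.9% ± 3.13 in KO, with overlapping groups.

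Pfkfb3 and Pfkfb4 set the amount of fructose 2,6-bisphosphate, which speeds up phosphofructokinase. Pfkfb3 was at 31.9 ± 8.78 and 26.5 ± 4.45 CPM and Pfkfb4 at 11.4 ± 1.74 and 12.7 ± 2.14 CPM, and in both the groups overlapped. Pfkfb4 was highest in KO 1, at 15.9 CPM.

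Of the secreted and matrix genes, Adm, which encodes the vessel-dilating peptide adrenomedullin, was at 7.70, 6.44, 3.65 and 8.14 CPM in WT and at 5.14, 4.54, 3.59 and 3.17 CPM in KO. Its log2 fold change was -0.65 (SE 0.25), and WT 4 again lay among the KO values. Vegfa, the main growth factor of blood vessels and a far more abundant mRNA, was at 220.4 ± 17.98 and 199 ± 15.1 CPM, a log2 fold change of -0.15 (SE 0.11). For P4ha1 and P4ha2, which hydroxylate prolines of collagen, the log2 fold changes were -0.22 (SE 0.13) and -0.05 (SE 0.12). That of P4ha1 was -0.13 without KO 1 and KO 5, which held its lowest KO values. Of the stress genes, Ddit4, an inhibitor of mTORC1, was at 74.5 ± 11.8 and 59.4 ± 11.0 CPM, and Ndrg1 at 157 ± 19.1 and 141 ± 13.4 CPM. Ankrd37, an ankyrin-repeat gene known as a HIF target, was at 4.22 ± 1.13 and 2.49 ± 0.594 CPM, a log2 fold change of -0.76 (SE 0.25). Its count is uncertain, because Ufsp2 on the other strand had 1369% as many reads and shares 57 exon bases with it. Lrp2bp, also on the other strand, had 15.8% as many reads and shares 349 exon bases with Ankrd37.

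WT 4 was the lowest WT library in 16 of the 21 hypoxia genes. It also had the lowest sum of 16 oral keratinocyte markers in WT, at 1344 CPM against 1749 to 1872 CPM in the other WT libraries. The markers were not uniform in this. Krt10, Krt6a, Krt6b, Krt16, Krtdap, Sbsn, Ivl, Sprr1a and Dsg1a were lowest in WT 4 among the WT libraries. Krt1, Krt4, Krt13 and Trp63 were highest in WT 4 of all libraries, at 18.9, 50.1, 67.1 and 442 CPM. The sum of the 16 markers was 1143 to 1241 CPM in KO, below every WT library, and all 16 had a lower mean in KO. Of these markers, Sprr1b was at 0 in all 4 KO libraries and in WT 3 and WT 4, and the other 15 had reads in every library. The sum of 11 macrophage and leukocyte markers lay at 248.7 to 283 CPM in WT and at 293 to 426 CPM in KO. In bulk libraries such as these, fewer cells of a type and less RNA per cell cannot be told apart, and the part of these markers in the hypoxia genes was not tested. Without WT 4 the median log2 fold change of the hypoxia genes was -0.31. As WT 4 was the lowest WT library in most of these genes, leaving it out lowers this median by construction.

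**Figure D2:**
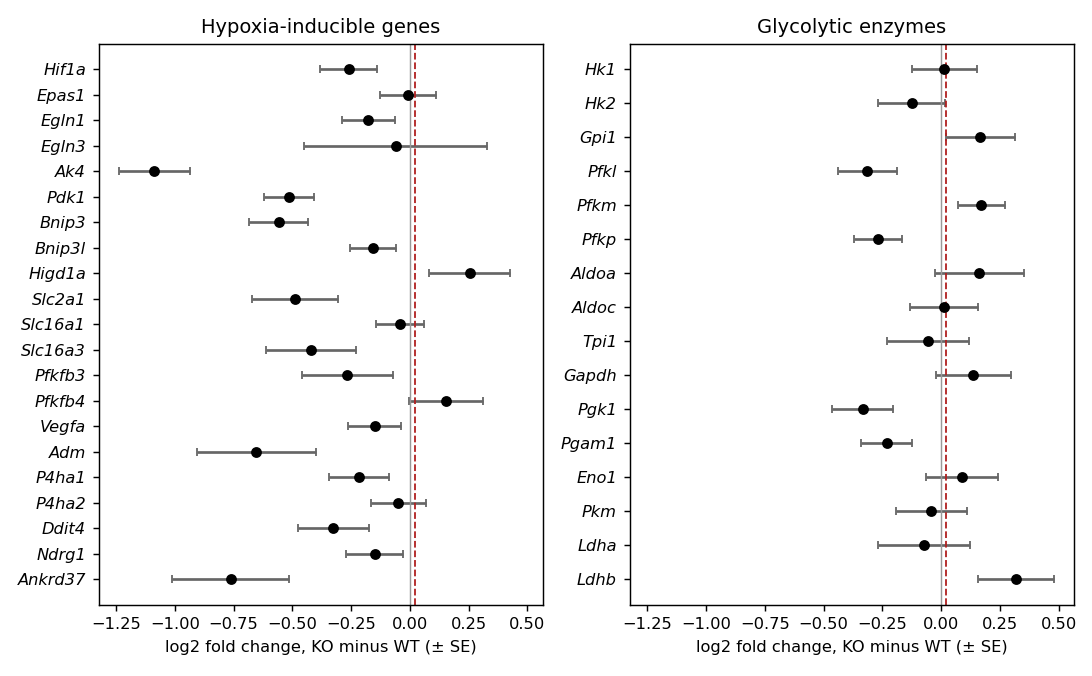
Log2 fold change, KO minus WT, with its SE for each of the 37 genes. The dashed red line is the median of all genes tested (0.02), and 19 of 21 hypoxia genes lie below 0 against 8 of 16 enzymes.

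The 16 glycolytic enzymes did not lie to one side. With all 8 libraries, 8 were below 0 and 8 above, the median log2 fold change was -0.01 against 0.02 over all genes, and 0 passed the threshold in edgeR or DESeq2 (background 0.0309% in edgeR, either direction). In 1 enzyme, Pfkp, the groups did not overlap, or 6.25% of the list against 5.44% of all genes with KO lower. The summed level of the 16 enzymes was 8491, 9047, 8254 and 8463 CPM in WT and 8425, 7711, 7442 and 11330 CPM in KO. KO 5 thus stood above all other libraries, KO 1 lay within the WT range, and KO 3 and KO 4 lay below it.

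**Figure D3:**
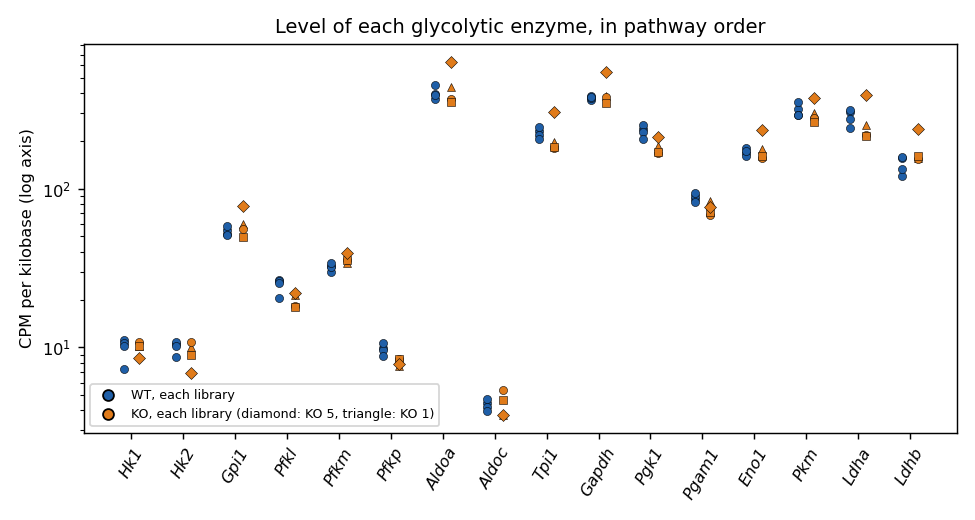
CPM per kilobase of gene length on a log axis for the 16 enzymes in pathway order, 1 point per library. Aldoa, Gapdh and Pkm are the highest and Aldoc the lowest, and the KO 5 diamond is the top point in 9 enzymes.

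Levels between genes are compared per kilobase of the authors' gene length. Hk1 and Hk2, the hexokinases that trap glucose in the cell, were at 9.84 ± 1.70 and 10.04 ± 0.901 CPM per kilobase in WT. Gpi1, which turns glucose 6-phosphate into fructose 6-phosphate, was at 54.1 ± 3.24. Of the later enzymes, Aldoa was at 399.5 ± 35.3, Gapdh at 375 ± 9.30, Pkm at 313 ± 27.3 and Ldha at 283 ± 32.4 CPM per kilobase in WT. Pgk1 and Tpi1 were at 231 ± 20.3 and 225 ± 17.1, Eno1 at 171 ± 8.19, Ldhb at 142 ± 18.4 and Pgam1 at 88.0 ± 5.29. Aldoc, the brain-type aldolase, was at 4.35 ± 0.333, or 1.08% of the aldolase level in WT and 1.05% in KO.

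Phosphofructokinase, the committed step, comes in 3 forms. Per kilobase, the muscle form Pfkm made up 48.3% ± 3.002 of their level in WT and 56.4% ± 1.60 in KO, the liver form Pfkl 37.02% ± 2.91 and 30.9% ± 2.39, and the platelet form Pfkp 14.7% ± 0.526 and 12.7% ± 1.14. The groups did not overlap for the shares of Pfkm and Pfkp and overlapped for Pfkl. These shares were not corrected for GC content and length. In CPM, Pfkl was at 179, 175, 137 and 169.5 in WT and at 143, 122, 119 and 147 in KO, a log2 fold change of -0.31 (SE 0.12) that was -0.49 with GC content and length corrected. Pfkp was at 134, 129, 119 and 144 CPM in WT and at 102, 113, 114 and 106 CPM in KO, a log2 fold change of -0.27 (SE 0.10) that was -0.12 with GC content and length corrected. Pfkm was at 107 ± 5.92 and 121 ± 7.36 CPM, a log2 fold change of 0.17 (SE 0.10) that was 0.03 with GC content and length corrected. The counts of Pfkp and Pfkm are uncertain, since Pitrm1 and Senp1 overlap them on the other strand with 37.4% and 29.8% as many reads. Pitrm1 was at 43.7 ± 2.01 and 45.5 ± 5.33 CPM and Senp1 at 34.5 ± 1.66 and 33.5 ± 5.24 CPM. Skeletal muscle markers, 12 in all, summed to 72.0 to 121.9 CPM in WT and 62.9 to 125.8 CPM in KO.

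Pgk1, the first step that returns ATP (chromosome X, 106187100 to 106203699), was at 536, 567, 511 and 459 CPM in WT and at 415, 376, 380.5 and 474 CPM in KO. Without KO 5 every KO value lay below every WT value, and with it the groups overlapped. The log2 fold change was -0.33 (SE 0.13). Pgk1 lies on chromosome X, and Xist, the RNA of the inactive X, was at 802, 839, 251 and 658 CPM in WT and at 249, 191, 356 and 177 CPM in KO. The median log2 fold change over 516 tested genes of chromosome X was -0.02, against 0.02 over all genes. Of the X genes 53.1% were below 0, against 46.9% of all genes. Without overlap, 43 of the 516 were lower in KO and 15 higher, against 882 and 892 of all 16205. The part of Xist in the Pgk1 values was not tested. Pgam1, the next step, was at 157, 164, 150.1 and 173 CPM in WT and at 154, 124, 131 and 141 CPM in KO, a log2 fold change of -0.23 (SE 0.11).

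In the lactate dehydrogenases KO 5 lay above every other library. Ldha, the lactate dehydrogenase subunit that HIF induces, was at 1002, 1037, 909 and 798 CPM in WT and at 836, 726, 709 and 1290 CPM in KO. Ldhb, the heart-type subunit, was at 189, 209, 247 and 248 CPM in WT and at 247, 242, 252 and 373 CPM in KO, a log2 fold change of 0.32 (SE 0.16) that was 0.15 without KO 5 and 0.19 with GC content and length corrected. Ldha made up 66.4% ± 5.29 of the 2 subunits per kilobase in WT and 59.9% ± 2.37 in KO, and the groups overlapped. Among enzymes of the middle and end of the pathway, Aldoa was at 1163 ± 103 and 1302 ± 374 CPM, Gapdh at 1549 ± 38.4 and 1703 ± 359.8 CPM, and Pkm at 1565 ± 137 and 1522 ± 248 CPM. Tpi1 was at 618 ± 47.2 and 596 ± 160.1 CPM and Eno1 at 919 ± 44.0 and 978 ± 194 CPM. For Hk1 and Hk2, in contrast, KO 5 was the lowest KO library, at 73.6 and 41.0 CPM. Pseudogenes of Gapdh, Pgk1, Ldha, Tpi1, Pgam1, Pkm and Aldoa and the Eno1 retrogene held at most 0.751% as many reads as the gene itself.

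**Figure D4:**
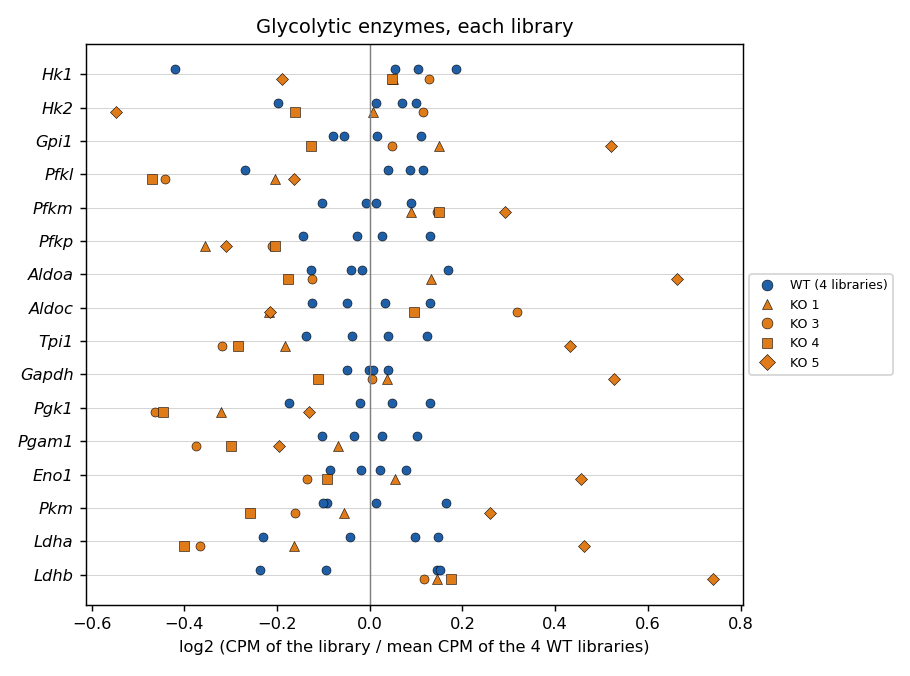
Log2 of each library's CPM over the WT mean for the 16 enzymes, 1 point per library, WT blue and KO orange. The KO 5 diamond lies right of every other point in 9 enzymes, and the KO points of Pfkp lie left of every WT point.

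KO 5 was the highest of the 8 libraries in 9 enzymes, Aldoa, Eno1, Gapdh, Gpi1, Ldha, Ldhb, Pfkm, Pkm and Tpi1, and in 1 of the 21 hypoxia genes, Higd1a. In KO 5 the sum of the erythroid markers was also the highest, at 4649 CPM against 756.4 to 2457 CPM elsewhere. Its part in the enzyme values was not tested. In KO 5 the rank correlation of a library's deviation from the mean of all libraries with GC content was the highest (Spearman rho 0.37 across genes, which are not independent). This correlation separated the genotypes, from -0.42 to -0.157 in the WT libraries and from -0.051 to 0.372 in the KO libraries. The median GC content was 52.9% in the enzymes, 50.85% in the hypoxia genes and 49.65% in all tested genes. With each library's trend on GC content and length removed, 12 of 16 enzymes were below 0, with a median of -0.13, and the hypoxia genes had a median of -0.19. Without KO 5, 11 enzymes were below 0, with a median of -0.05, and without KO 1 and KO 5 there were 12, with a median of -0.14. In that last comparison 8 of 16 enzymes and 8 of 21 hypoxia genes had KO values below every WT value, against 10.2% of all genes. Above every WT value lay 1 enzyme (Pfkm) and 0 hypoxia genes, against 11.0% of all genes. As KO 5 and KO 1 had the highest enzyme sums of the KO libraries, leaving them out lowers the KO enzyme values by construction. The enzyme counts without them therefore cannot be read against the share of all genes. Nor can the hypoxia count. Ankrd37, Ddit4, Egln1 and Slc2a1, which overlapped with all libraries, had their highest KO values in KO 1 and KO 5.

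**Figure D5:**
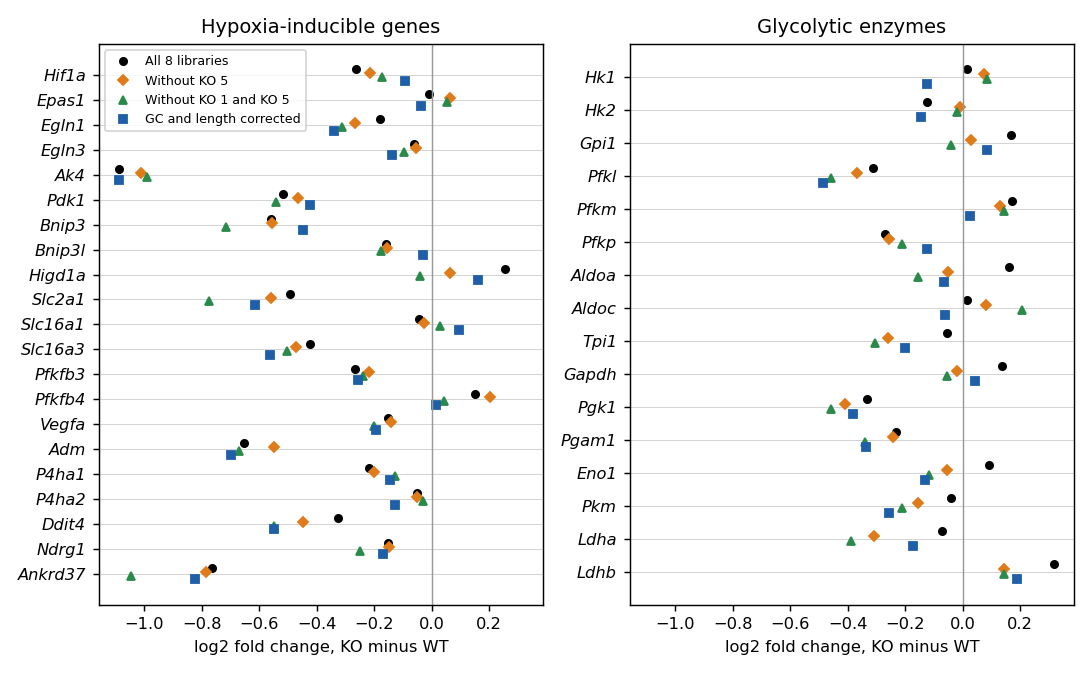
Log2 fold change of each gene with all 8 libraries, without KO 5, without KO 1 and KO 5, and with GC content and length corrected. Aldoa, Eno1, Tpi1 and Ldha shift left when KO 5 is left out, while Ak4, Pdk1 and Bnip3 stay below -0.4 in all 4 fits.

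Further genes of the same pathways were listed by name, also with earlier results of these data known, so they are not an independent check. Of 38 more genes of the HIF pathway, 0 passed the threshold in edgeR (0.0309% of all genes did), 18 were below 0, against 46.9% of all genes, and the median log2 fold change was 0.03. Their groups did not overlap in 3 genes lower in KO and 5 higher, or 7.89% and 13.2% of the list, against 5.44% and 5.5% of all genes. The 3 with the smallest p were Angptl4, Ero1l and Narf. Angptl4, an inhibitor of lipoprotein lipase known as a target of HIF and of PPARs, was at 24.2, 20.6, 21.6 and 28.5 CPM in WT and at 43.5, 37.03, 35.8 and 41.6 CPM in KO, higher in each KO library, a log2 fold change of 0.73 (SE 0.13). Ero1l, an oxidase of protein folding in the endoplasmic reticulum, was at 40.03, 44.7, 40.6 and 40.5 CPM in WT and at 28.2, 32.6, 30.1 and 24.0 CPM in KO, lower in each, a log2 fold change of -0.53 (SE 0.12). Narf was at 87.6 ± 5.64 and 68.4 ± 2.71 CPM, a log2 fold change of -0.36 (SE 0.10), also without overlap.

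Of 21 further glycolysis genes, 18 were tested, 0 passed the threshold in edgeR (0.0309% of all genes did), 7 were below 0, against 46.9% of all genes, and the median was 0.11. Slc16a7, the monocarboxylate carrier MCT2, was at 40.5 ± 9.69 and 23.2 ± 9.04 CPM, with KO 1 at 35.5 CPM within the WT range, a log2 fold change of -0.81 (SE 0.25). Pfkfb2, another member of the Pfkfb family, was at 22.9 ± 2.05 and 17.97 ± 3.74 CPM without overlap, and Slc2a4, the insulin-responsive glucose transporter, at 1.84 ± 0.224 and 2.87 ± 1.24 CPM, with KO 3 at 1.56 CPM below every WT library.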

How the data were processed

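The deposited table holds counts, whole numbers of reads per Ensembl gene and library that the authors did not normalise, together with the gene length the authors list. Libraries were made by polyA capture, per the labels' protocols. CASAVA and mm39 are named in the submitters' processing notes, while the start of 98.8% of the 54495 gene IDs found in GENCODE M21 was that of GRCm38. An aligner, a counting program and its use of strand were not given in the sources used here.

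Of 54532 genes, filterByExpr (counts of at least 10, total of at least 15) kept 16205. Both genotypes were fitted in edgeR 4.0.16 (R 4.3.3; TMM, robust quasi-likelihood, no covariate), adjusted after Benjamini and Hochberg over all genes tested, with a threshold of 0.05. Levels are CPM on TMM-scaled totals, computed here, with SD over 4 libraries. Each SE is the size of the log2 fold change over the square root of F. The fit was tested on simulated data.

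The members and lists were chosen with earlier results of these data known. All members are named. In the lists of further glycolysis, HIF pathway and pyruvate genes, those past the threshold were to be named or, failing any, 3 by smallest p, and tested adenylate kinases. One item is not reported here. Marker lists held ameloblast, oral keratinocyte, muscle, erythroid, macrophage and leukocyte, endothelial, and odontoblast and mesenchyme genes. Promoter windows ran from 250 bases before to 50 after a RefSeq start on GRCm38.p6, 1 per gene, the one nearest the gene's 5′ end in the table. The alternatives were DESeq2 size factors, library totals, DESeq2 1.42.0, limma 3.58.1 voom, no count filter, a replicate block, a GC content and length correction (splines with 5 degrees of freedom per library), and libraries left out. The labels do not say whether the replicate numbers pair the libraries.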

Additional observations from a re-analysis of the deposited data

Results flagged for a closer look

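In 76 groups of 4 libraries, from the 37 genes and Wdr72, 6 held a library that lay apart from the other 3, where chance flags about 1 in 20, or 3.8. In each, the gap to the nearest library took up most of the range of the group (above Dixon's 95% critical value). KO 5 lay above the other KO libraries for Tpi1, at 833.6 CPM, and for Ldhb, at 372.9 CPM. WT 4 lay below the other WT libraries for Slc2a1, at 87.2 CPM, and for Slc16a3, at 12.01 CPM. KO 1 lay above the other KO libraries for Pfkfb4, at 15.86 CPM, and for Egln3, at 2.133 CPM.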

How the results depend on the processing

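Over 16 alternatives, 15 of the 21 hypoxia genes were below 0 in each fit, 1 (Pfkfb4) was above 0 in each and 5 changed sign (Egln3, Epas1, Higd1a, P4ha2, Slc16a1). Of the enzymes, 5 were below 0 in each (Hk2, Pfkl, Pfkp, Pgam1, Pgk1), 2 above 0 (Ldhb, Pfkm) and 9 changed sign. The count of hypoxia genes past the threshold was 1 with all libraries, 3 with DESeq2 and with no count filter, and 0 with library totals, voom or the replicate block on numbers 3, 4 and 5. With 1 library left out it ran from 0 to 2: 2 without KO 5, 1 without WT 4, and 0 without any other. Without KO 1 and KO 5 it was 1, which was Bnip3 and not Ak4. The count over all genes was 5, and 2 with library totals, 464 with DESeq2, 0 with voom (2566 genes at an unadjusted p of 0.05), 241 with no count filter, 24 with the GC and length correction, 11 without KO 1 and KO 5, and 0 to 55 with 1 library left out. With the replicate block it was 1. Same-numbered libraries deviated from their group means with correlations of -0.143, -0.092 and -0.121. The labels do not say whether same-numbered libraries share a litter or batch, and these correlations cannot settle it. Wdr72 passed with DESeq2 (-2.44), the replicate block (-3.42) and without KO 1 (-3.21), and over the libraries left out its log2 fold change ran from -3.21 to -2.15. Library totals move the median of all genes from 0.02 to -0.03 and the share below 0 from 46.9% to 54.0%. No enzyme passed under any of these alternatives. Egln3, Adm and Ankrd37 rest on 331, 827 and 525 reads in all.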
